A study of Mus musculus with 8 samples.

Results

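The regions described here are the 480 remote, stage-specific SMAD4 peaks among the 8258 peaks that the study listed for mouse limb buds at 2 stages. A peak was taken as a member when it overlapped no peak of the other stage by 1 bp and when its centre lay at least 100 kb from the 5′ end of the nearest annotated transcript (mm9, GENCODE vM1). By this rule 186 of 1686 E9.5-only peaks (11%) and 294 of 5798 E10.5-only peaks (5.07%) were remote. The members were thus chosen by their position and by presence in only one list, so their distances, their scores and the lack of a peak at the other stage are given as a description with no test. The study mapped SMAD4 by chromatin immunoprecipitation and sequencing with the M2 anti-FLAG antibody, in embryos homozygous for an allele that adds a 3xFLAG tag to the endogenous protein (Smad4 3xF/3xF, genotype label Smad4Flag, strain label NMRI). It holds 2 ChIP and 2 input samples for each stage, all from tagged embryos, with no untagged or untreated group. About 80 embryos were pooled for an E9.5 replicate and about 100 for an E10.5 replicate. Forelimb buds were collected together with trunk at the early stage, and both fore- and hindlimb buds at the late one, so that stage and tissue cannot be told apart. The sample labels name forelimb bud for every sample, and the protocol dates the early embryos slightly later than their label. Trunk cells were therefore part of the early chromatin, and a peak list holds no marker by which the tissue could be checked. Both replicates of a stage had been combined before deposit, so there is no error between replicates, the sequencing depth is unknown, and intervals and p-values cover counting error over peaks rather than embryos.

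SMAD4 is the shared partner of the SMADs that receptors for BMP, TGFβ and activin ligands phosphorylate, and the resulting complex enters the nucleus and binds DNA together with other transcription factors. SMADs recognise the short SMAD box, its inverted repeat and GC-rich forms. In the limb bud, BMP signalling takes part in setting up the signalling centres and, later, in forming cartilage. Genes that control development often lie beside long stretches without other genes, and such gene deserts are known to hold distal enhancers. Here a desert is the stretch between neighbouring transcript starts that has bases 100 kb or more from both, and its flanking genes are those with the nearest protein-coding start on either side, which can lie beyond a non-coding start at the desert's own edge.

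SMAD recognition sequences within remote peaks of high and low score are shown first, as 30 bases of the mm9 plus strand each, with capitals for the SMAD box (CAGAC or its complement GTCTG) and for the palindrome GTCTAGAC, an inverted repeat that does not itself contain the box. The 5 E9.5 stretches come from 4 of the 10 best-scored peaks and from the best-scored peak between Wwox and Maf, and they show the palindrome or 2 boxes 1 base apart.
Myo16 to 3930402G23Rik, chr8:10760934-10760963: agtaccattctGTCTAGACggggagagccc
En1 to Insig2, chr1:122755968-122755997: gctatctctcgGTCTAGACttcCAGACtgc
Wwox to Maf, chr8:117687160-117687189: tggggactgttGTCTAGACagggggacaga
9430031J16Rik to Gm9747, chr1:81590302-81590331: gcccctaggcCAGACtGTCTGagaagctac
Grid1 intron, chr14:36127255-36127284: catcaggaggCAGACaGTCTGgctgcgcag
The E10.5 stretches are the palindromes within Fstl4 and between Irx2 and Irx4, the 2 palindromes that lie within the central 300 bp of a remote peak (in Smyd3 and Ryr2), and a pair of boxes between Rtl1 and Dio3.
Fstl4, chr11:52830578-52830607: agactcacttaGTCTAGACtataagtgggt
Irx2 to Irx4, chr13:72922606-72922635: cttgagccagtGTCTAGACtgctgtagagg
Smyd3, chr1:181042183-181042212: gcatgctgttgGTCTAGACttctcatttta
Ryr2, chr13:11829654-11829683: agccaggcaatGTCTAGACttctaatgccc
Rtl1 to Dio3, chr12:111135143-111135172: catccccaagCAGACaGTCTGtcaccatcc
The last 2 stretches show where boxes were densest, as tandem repeats in E9.5 peaks within introns of Myo18b and Tbc1d22a.
Myo18b intron, chr5:113200062-113200091: GTCTGgGTCTGgGTCTGgGTCTGggGTCTG
Tbc1d22a intron, chr15:86253509-86253538: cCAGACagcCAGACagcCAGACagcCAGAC
The Wwox, Irx2, Myo18b and Tbc1d22a stretches were chosen after their values were seen. The Myo18b window held 19 boxes in 300 bp, the most of any remote peak, while no E10.5 window held more than 4.

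At E9.5, the remote peak with the highest score lay on chr8:10760469-10761805, in the intergenic stretch between Myo16, which encodes an unconventional myosin, and 3930402G23Rik. The score is a number deposited with each peak that grows with the strength of the call. Its value of 415.21 here was above the highest score of the other 1500 E9.5-only peaks (296.58) and ranked 18 in the list of 2073. Its nearest transcript start was 167 kb away and no peak of the other stage lay within 161 kb. The remote peaks next in score lay on chr1:81589715-81591056 between 9430031J16Rik and Gm9747 (151.84), on chr12:26218434-26219727 between Id2 and Rnf144a (148.22) and between Smad2 and Skor2, 314 kb from the latter (112.65). Id2 encodes a helix-loop-helix protein that blocks other factors of its class, and Smad2 is one of the SMADs that TGFβ and activin receptors phosphorylate. The fifth peak lay on chr1:122755565-122756795, 257 kb from the start of En1, a homeobox gene of the ventral limb ectoderm (97.97). The other 5 of the first 10 scored 93.65 beside Lrig3, 90.93 within Grid1, 87.59 within Kcnq1, 85.18 between Spata18 and Usp46 and 81.96 between Mki67 and Mgmt. Of these 10 peaks, 8 were intergenic and 2 lay in introns of a gene (Grid1 and Kcnq1) whose nearest start was 256.2 and 140.0 kb away.

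At E10.5, the remote peak with the highest score lay on chr10:72311997-72313410 between Zwint, a kinetochore gene, and Pcdh15, a cadherin gene, and its score was 285.81. It was followed by chr16:80332973-80334556 between Tmprss15 and Ncam2 (141.22), chr7:132055433-132057170 between Gm16496 and 4930533L02Rik (131.14) and chr16:15052523-15053888 between Efcab1 and Ube2v2 (122.17). The central windows of the first 3 consisted largely of sequence found elsewhere in the genome, with 62.96%, 73.7% and 51.1% of their 31-mers (runs of 31 bases) repeated, and each of these windows had 0 SMAD boxes. The peak in Fstl4, a follistatin-like gene, came next on chr11:52827172-52832837 with a score of 111.08, no repeated 31-mer and 2 boxes in its central window. The whole peak, which is 5666 bp wide, held 15 boxes (2.65 per kb) and, outside that window, the palindrome shown above. The other 5 of the first 10 lay beside Fam98a (105.73), between Zfp516 and Tshz1 (98.23), between Rtl1 and Dio3 (98.15), between Igbp1b and Rergl (96.91) and within Fat4 (96.35), a gene for a large cadherin. Windows with more than 50% repeated 31-mers were found at 18 of 294 remote E10.5-only peaks (6.12%, 95% Wilson interval 3.91 to 9.47) and at 3 of 186 remote E9.5-only peaks (1.61%, 0.550 to 4.63), compared with 1.14% and 1.20% of the other stage-only peaks. The reads had been kept by the authors only where they matched the genome at a single place, and the part that repeats play in these scores was not tested.

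**Figure D1:**
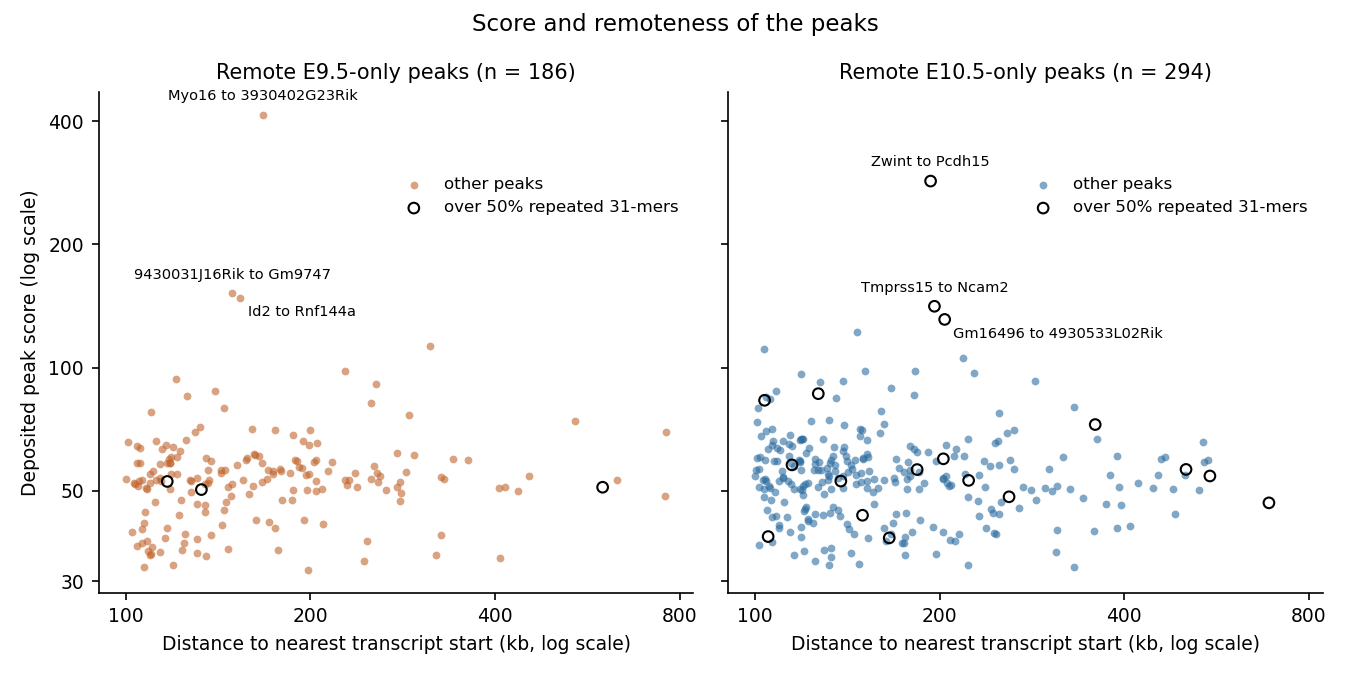
Each point is a remote peak, with its distance to the nearest transcript start (kb, log scale) against the deposited score (log scale), for 186 E9.5-only peaks on the left and 294 E10.5-only peaks on the right. Open circles mark windows with over 50% repeated 31-mers, which include the 3 highest E10.5 scores, and most scores lie between 30 and 100 at any distance.

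Remote peaks tended to score lower than the other stage-only peaks, slightly at E9.5 and more at E10.5. The median of their scores was 53.1 for the early and 54.3 for the late stage, against 54.8 and 59.6 for the other stage-only peaks, and scores under 50 made up 28.5% and 30.95% of the remote peaks against 22.2% and 12.6% of the others. Only 4 remote E9.5-only peaks and 6 remote E10.5-only peaks had a score of 100 or more. Early remote peaks had a median width of 990 bp and late ones of 1755 bp, and the widest remote peaks measured 5779 and 10231 bp. The median distance to a transcript start was 149 kb at both stages, and the most distant centre lay 761 kb from a start at E9.5 (on chr14:81161093-81161473, between Olfm4 and Pcdh17) and 688 kb at E10.5 (on chr3:71299141-71299998, between Otol1 and Sis). The nearest peak of the other stage was typically far away as well, with a median gap of 166 kb for the E9.5 members and 333 kb for the E10.5 members, while 7 and 6 of them had such a peak within 5 kb. The 2 E9.5 members nearest to the distance limit lay 100.3 and 101.1 kb from a start, and the nearest E9.5-only peaks outside it lay at 99.9 kb. At E10.5, the corresponding distances were 100.1 and 100.4 kb inside, and 99.8 and 99.6 kb outside. The closest remote peaks of different stages that did not overlap lay 0.985 kb apart between Fam78b and Uck2, with scores of 51.81 (E9.5) and 36.79 (E10.5). There were 13 remote peaks in each list that did overlap the other list, and the pair with the smallest overlap, on chr12:44073697-44074234 and chr12:44073467-44074407, had scores of 127.69 and 346.73.

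The 2551 deserts of the genome span 563 Mb, which is 22.0% of the sequenced bases. Remote E9.5-only peaks occupied 152 of them (5.96%) and remote E10.5-only peaks 234 (9.17%), and 50 deserts held both kinds, or 32.9% of those with an E9.5 peak and 21.4% of those with an E10.5 peak. Deserts with a peak of one stage more often held one of the other at each desert length. Among deserts of 200 to 400 kb, remote E10.5-only peaks were present in 25.4% of the 63 that held a remote E9.5-only peak and in 5.08% of the other 1593, and among deserts of 800 kb or more these shares were 43.5% of 23 and 13.9% of 201. Over all 118 pairs of peaks of different stages in the same desert, the median distance between centres was 131 kb, and 7 pairs lay within 10 kb. A desert with several peaks gives several pairs, and the rule left out overlapping peaks. These distances therefore do not show how near the closest peaks of different stages lay. Most deserts held a single remote peak of a stage, 122 of 152 at E9.5 and 189 of 234 at E10.5. No remote peak of either stage lay on chromosome X, which holds 2.78% of the desert bases. The share of all listed peaks on this chromosome is not given here, so the count does not set remote peaks apart from the others. These values rest on the positions that chose the members and were not tested.

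The desert between Tbc1d22a and Fam19a5, which encodes a small secreted protein, held the most remote peaks at both stages, 4 (E9.5) and 5 (E10.5). The E9.5 peaks lay 209, 407, 644 and 746 kb from the Tbc1d22a start with scores of 50.53, 34.28, 41.46 and 35.63, and the E10.5 peaks lay 119, 152, 434, 460 and 465 kb from it with scores of 50.18, 66.38, 52.20, 46.23 and 40.49. No peak of one stage lay within 10 kb of one of the other in this desert, and 1 of the E9.5 peaks is the tandem repeat of SMAD boxes shown above. The desert between Wwox and Maf, a basic leucine zipper gene, held 3 E9.5 peaks with scores of 77.66, 50.01 and 54.89 and 2 E10.5 peaks with scores of 34.80 and 39.64. The desert between Tshz3 and Zfp536, which both encode zinc finger proteins, held 3 E9.5 peaks with scores of 42.39, 59.70 and 53.96 and 2 E10.5 peaks with scores of 35.46 and 37.60. In the latter 2 deserts, every E9.5 score was above every E10.5 score, but scores of different lists are not on a tested common scale. Other deserts held remote peaks at 1 stage. At E10.5, 4 peaks lay between Rtl1 and Dio3, genes of an imprinted cluster of which the latter encodes an enzyme that inactivates thyroid hormone, with scores of 40.79, 98.15, 66.94 and 43.44. A further 4 lay between Cadm1, an adhesion gene, and Fam55b, with scores of 54.48, 69.10, 50.76 and 49.18. The desert between St6galnac5 and St6galnac3, genes for sialyltransferases, also held 4 E10.5 peaks, with a lower sum of scores (204.85 against 249.32 and 223.52). In the desert between Rad51l1 and Zfp36l1, whose product promotes decay of AU-rich mRNAs, the 2 E10.5 peaks (92.63 and 60.80) lay 286 and 405 kb from the Rad51l1 start, and the 2 E9.5 peaks (58.68 and 36.03) lay farther from it, at 577 and 647 kb.

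**Figure D2:**
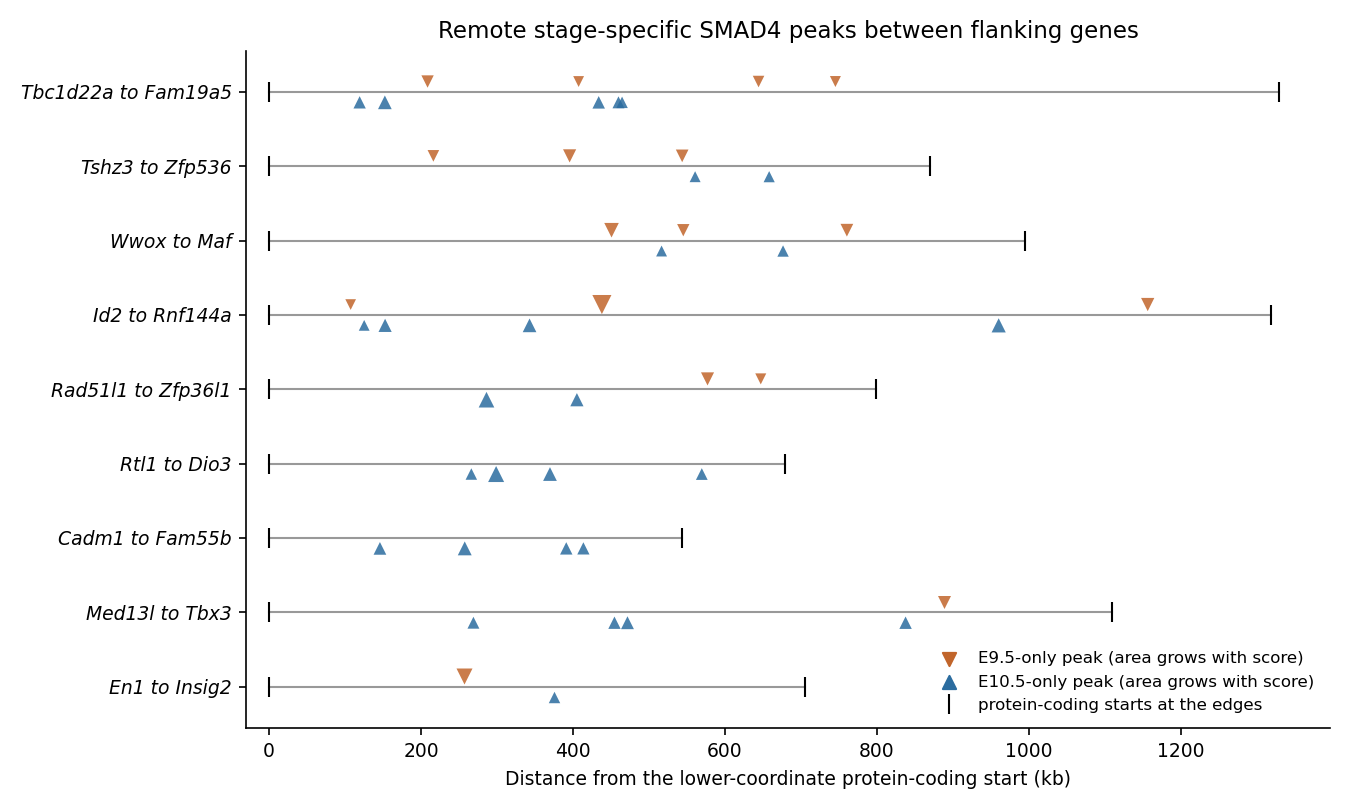
Each line runs from the lower-coordinate to the higher-coordinate flanking protein-coding start (black ticks, distance in kb), with remote E9.5-only peaks above it and remote E10.5-only peaks below it, drawn larger for a higher score. Between Tbc1d22a and Fam19a5 the 4 E9.5 and 5 E10.5 peaks take different positions, and the stretches from Rtl1 to Dio3 and from Cadm1 to Fam55b hold 4 E10.5 peaks each.

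To describe the genes that flank the deserts, lists of limb development genes, developmental transcription factors and developmental signalling genes were used, with lists of neural adhesion and chemosensory receptor genes as a contrast. A gene of any of the 3 developmental lists flanked 53 of 186 remote E9.5-only peaks (28.5%, 95% Wilson interval 22.5 to 35.4) and 65 of 294 remote E10.5-only peaks (22.1%, 17.7 to 27.2), while the deserts beside such genes hold 14.9% of all desert bases. Transcription factor genes alone flanked 23.1% of early and 17.0% of late remote peaks against 8.13% of desert bases. Limb genes flanked 14 E9.5 peaks (7.53%) and 21 E10.5 peaks (7.14%) against 3.89% of desert bases. Signalling genes were not above their share of bases, with 4.30% and 4.76% of peaks against 6.91%. Neural adhesion genes were below theirs, with 9.68% and 12.6% of peaks against 22.4% of desert bases. Chemosensory receptor genes flanked 0 peaks at either stage, where 0.311% of desert bases lie beside them. Per 10 Mb of desert, there were 6.34 E9.5 and 7.77 E10.5 peaks beside developmental genes and 2.78 and 4.78 elsewhere. The GC content of the deserts moved with these groups, at 40.1% beside developmental genes, 37.9% beside neural adhesion genes and 39.6% beside neither, and its part in the peak shares was not tested. When only the nearer flanking gene was counted, 19.4% of early and 11.9% of late peaks had a listed neighbour against 8.01% of desert bases.

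**Figure D3:**
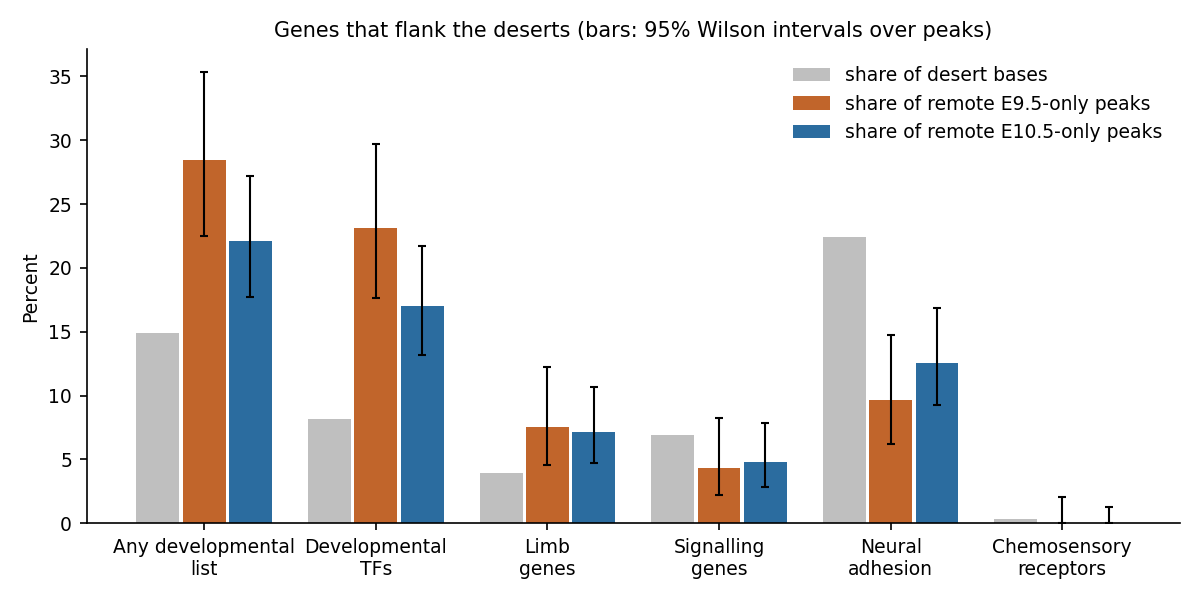
Bars give the percent of desert bases (grey) and of remote E9.5-only and E10.5-only peaks whose flanking protein-coding genes are on each list, with 95% Wilson intervals over peaks. Transcription factor genes flank 23.1% and 17.0% of the peaks and 8.13% of the desert bases, whereas neural adhesion genes flank 9.68% and 12.6% of the peaks and 22.4% of the bases.

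Of the 97 limb genes, 52 flank a desert and 16 of those flank a desert with a remote peak, namely 10 at E9.5 and 12 at E10.5, with 6 at both stages (Ebf3, En1, Id2, Pkdcc, Runx2 and Tbx3). Among the transcription factor genes, Id2 had the most, with 7 remote peaks along the 1319 kb between its start and that of Rnf144a. The E9.5 peaks lay 107, 438 and 1157 kb from the Id2 start with scores of 32.56, 148.22 and 61.24, and the E10.5 peaks lay 125, 153, 343 and 961 kb from it with scores of 33.64, 60.36, 66.12 and 72.55. The last of these E10.5 windows was 83.3% repeated sequence. Tbx3, a T-box gene active in the limb bud, was flanked by 4 E10.5 peaks 272, 638, 655 and 841 kb from its start with scores of 51.03, 56.51, 50.25 and 45.47, and by 1 E9.5 peak at 221 kb with a score of 57.84 (chr5:119898862-119899949). En1 had its E9.5 peak with the palindrome at 257 kb (97.97) and a weaker E10.5 peak at 376 kb (40.44). Both Ebf3 peaks lay in an intron of Mgmt, 211 kb (E9.5, 61.59) and 206 kb (E10.5, 88.89) from the Ebf3 start and 2.79 kb apart. Runx2, which directs bone formation, had an E9.5 peak at 463 kb (58.06) and an E10.5 peak at 293 kb (51.46), on opposite sides of the gene. At E9.5 only, Irx3 was flanked by 2 peaks at 126 and 366 kb (47.00 and 52.75). At E10.5 only, peaks flanked Gli3, a transcription factor of the hedgehog pathway, at 653 kb (39.58), and Sox6, a gene of cartilage formation, at 392 and 557 kb (50.90 and 32.56).

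The remaining limb genes with remote peaks act in signalling. Inhibitory SMADs, which block the pathway that SMAD4 serves, were represented at each stage by a different gene. At E9.5 a peak with a score of 51.37 lay on chr9:63758901-63760995 between Smad3 and Smad6, 105 kb from Smad6 and 154 kb from Smad3, and a peak of the E10.5 list lay 4.82 kb from it. At E10.5, 2 peaks in introns of Dym lay 133 and 154 kb from the Smad7 start, with scores of 58.35 and 55.93. Pkdcc, which encodes a secreted kinase needed for the growth of long bones, had E9.5 peaks at 116 and 232 kb (64.71 and 53.10) and between them an E10.5 peak at 172 kb (56.73). Cyp26b1, whose product degrades retinoic acid, had 2 E10.5 peaks at 202 and 150 kb (44.05 and 43.53), of which the latter window was 81.5% repeated sequence. Among receptors and ligands, Epha7 (37.26 at 430 kb) and Fgf9 (53.10 at 680 kb) each had 1 E9.5 peak, and Fgfr2 had 1 E10.5 peak (55.49 at 308 kb). The gene model of Fgfr2 in this annotation reaches past neighbouring genes, so that 2 more remote E10.5-only peaks, on chr7:138935748-138938707 (64.14) and chr7:139660682-139663873 (50.68), count as inside Fgfr2 although their flanking starts belong to Gm16477 and Gpr26 and to Chst15 and Oat. Of the 16 limb genes, only Id2, En1 and Ebf3 had a remote peak with a score above 80.

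Beyond the limb list, 44 of the 140 transcription factor genes that flank a desert had a remote peak, 26 at E9.5, 31 at E10.5 and 13 at both. Tshz3 was flanked by 4 E9.5 and 2 E10.5 peaks with best scores of 59.70 and 37.60, whereas its relative Tshz1 was flanked by 3 E10.5 peaks with a best score of 98.23 and by none at E9.5. Maf and Tcf7l2, an effector of Wnt signalling, each had 3 E9.5 and 2 E10.5 peaks, with best scores of 77.66 and 39.64 for Maf and of 56.05 and 69.21 for Tcf7l2. Zfhx3 had 2 peaks of each stage (63.98 and 48.03 at best), as had Klf3 (53.71 and 52.00). Gata6 (68.43 and 60.33) and Sox2 (58.53 and 57.44) each had 2 E9.5 peaks and 1 E10.5 peak. Nr2f1, which encodes a nuclear receptor, had 2 peaks at E9.5 (best score 76.65) and Prox1, a homeobox gene, had 2 at E10.5 (best score 70.70). Of the 81 signalling genes that flank a desert, 8 had a remote peak at E9.5 and 12 at E10.5, with 1 at both stages. That gene was Smad2, with 2 E9.5 peaks (best score 112.65) and 1 E10.5 peak (84.10). By comparison, 17 and 31 of the 133 neural adhesion genes that flank a desert had a remote peak at E9.5 and E10.5, and 42 had one at either stage. Counted by gene in this way, 42 of 133 neural adhesion genes stood beside 44 of 140 transcription factor genes and 16 of 52 limb genes, with 19 of 81 signalling genes and 0 of 23 chemosensory receptor genes. These counts were not tested.

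Remote peaks lay mostly between genes, but the share of desert bases inside genes is not given here, so this is a description only. The centre was inside a protein-coding gene for 51 of 186 E9.5 peaks (27.4%, 95% Wilson interval 21.5 to 34.2) and 91 of 294 E10.5 peaks (30.95%, 25.9 to 36.5), and the centre of 1 and 7 of these peaks lay in an annotated exon. The centre windows were richer in GC than their surroundings, with medians of 51.5% (E9.5) and 51.7% (E10.5) against 39.0% for the 300 bp windows that tile the deserts outside peaks. Windows like CpG islands, with an observed to expected CpG ratio of 0.6 or more and a GC content above 50%, were seen at only 2 E9.5 peaks (1.08%) and 7 E10.5 peaks (2.38%). They made up 15.4% and 28.5% of the other stage-only peaks. As CpG islands mark many promoters, the distance in the rule bears on this share and it was not tested.

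**Figure D4:**
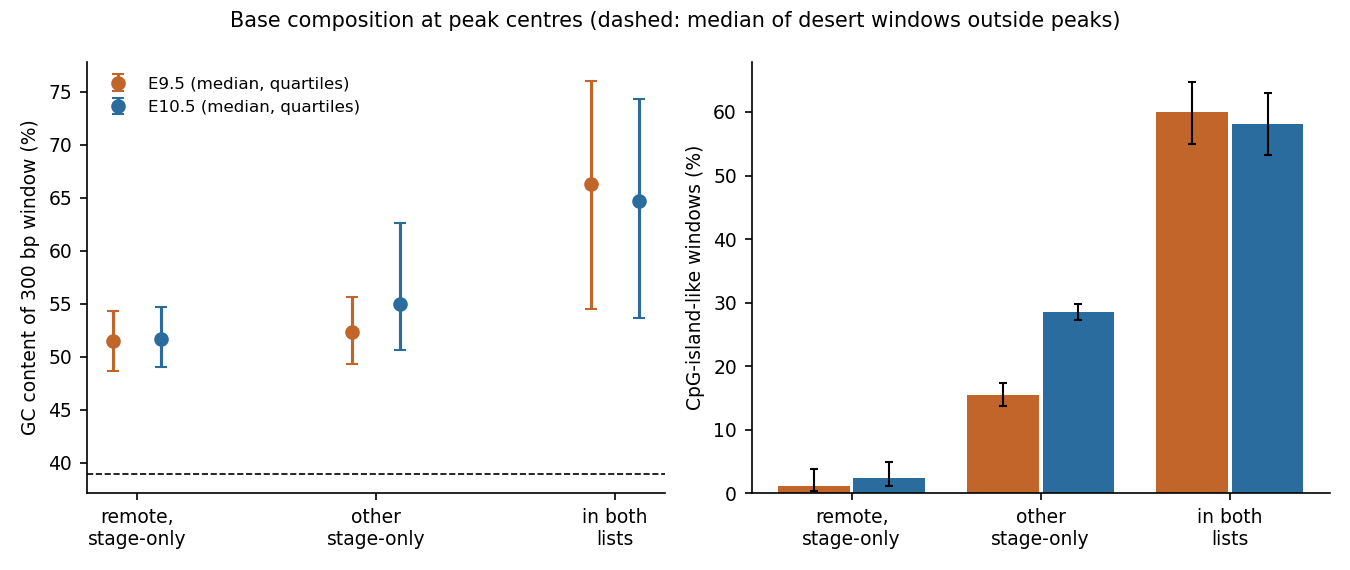
The left plot gives the median and quartiles of GC content (%) in the central 300 bp of remote, other stage-only and shared peaks, with the median of desert windows outside peaks (39.0%) as a dashed line. The right plot gives the percent of windows like CpG islands with 95% Wilson intervals, which is 1.08% and 2.38% for remote peaks and 15.4% and 28.5% for other stage-only peaks.

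Whether the remote peaks carry SMAD recognition sequences was asked in the central 300 bp, since the lists give no summits, against the 300 bp centred 5 kb away on the lower-coordinate side of each peak. A total of 13 motifs were searched on both strands, and the 26 tests over motifs and stages were adjusted together by the Benjamini-Hochberg method. The SMAD box was present in 62.3% of the E9.5 centres and in 48.6% of their flanks (183 pairs), a difference of 13.7 percentage points that did not pass the threshold after adjustment (exact McNemar test, two-sided, p = 0.00967, adjusted p = 0.0997). At E10.5, it was present in 53.8% of the centres and 55.9% of the flanks (290 pairs, exact McNemar test, p = 0.668, adjusted p = 0.965). Of the 26 exact tests, 0 were called (0%), and 4 had an unadjusted p under 0.05. Over the alternative windows, flanks and score limits, the adjusted p of the E9.5 difference ranged from 0.00198 to 0.255. For comparison, 41.4% of all 1870248 desert windows outside peaks held the box, and at the GC content of the members 56.2% (early) and 56.6% (late) of desert windows held it, so that 62.4% of all E9.5 members exceeded it by a ratio of 1.11 while 54.1% of the E10.5 members gave a ratio of 0.956. For other motifs the result depended on the window and on the side of the flank. With 500 bp, the GATA motif AGATAA was found in 14.5% of the E10.5 centres and 30.1% of the flanks (adjusted p = 0.000179), and the homeodomain motif TAATTA in 7.61% and 19.4% (adjusted p = 0.000433), both by the exact McNemar test. With 300 bp, the GATA difference was 10.0% against 19.3% on the lower-coordinate side (exact McNemar test, adjusted p = 0.0635) and 10.1% against 19.2% on the higher-coordinate side (adjusted p = 0.0406). The homeodomain motif at 300 bp was found in 5.17% of centres and 11.0% of lower-coordinate flanks (exact McNemar test, adjusted p = 0.0997), and in 4.55% and 6.29% on the higher-coordinate side (adjusted p = 0.662). GC content moves with these AT-rich words, with medians of 51.7% in the E10.5 centres and 44.7% in the flanks at 300 bp, and its part was not tested.

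Between the stages, the remote peaks did not differ in the SMAD box past the threshold. The box was found in 62.4% of early and 54.1% of late centre windows (difference 8.28 percentage points, 95% interval -0.799 to 17.0, odds ratio 1.41, Fisher's exact test, two-sided, p = 0.0881, adjusted p = 0.456 over 13 motifs), and 0 of 13 motifs were called (0%), with 0 at an unadjusted p under 0.05. With 500 bp windows, the GATA motif was found in 28.5% of early and 14.3% of late remote peaks (odds ratio 2.39, Fisher's exact test, adjusted p = 0.00310). It was the 1 of 13 motifs called (7.69%). Over quintiles of GC content, taken from the central 300 bp and not from the full 500 bp, the adjusted p of the Mantel-Haenszel test was 0.00140. The better-scored peaks also differed at 300 bp. Among the 41 E9.5 peaks with a score of 60 or more, 32 held the box (78.0%, 95% Wilson interval 63.3 to 88.0), and among the 84 such E10.5 peaks 44 did (52.4%, 41.8 to 62.7), with an odds ratio of 3.23 (Fisher's exact test, p = 0.00645, adjusted p = 0.0279, against a range of 0.0279 to 0.637 over all alternatives). The score limit was applied to each list apart, and equal scores need not mean equal binding in both. With a score of 60 or more, 4 of 13 motifs were called (30.8%), which besides the SMAD box were its longer core CAGACC (41.5% against 15.5%, adjusted p = 0.0205), the GATA motif (26.8% against 5.95%, adjusted p = 0.0205) and the FOX motif TGTTTAC (9.76% against 0 of 84 peaks, adjusted p = 0.0340), all higher at E9.5 by Fisher's exact test. The core contains the box, so these are not separate results. Among these peaks, 0 at E9.5 and 6 at E10.5 had windows of mostly repeated sequence, and without those 6 the SMAD box shares were 78.0% and 55.1% (Fisher's exact test, adjusted p = 0.0541) and the FOX motif, at 4 of 41 against 0 of 78 peaks, was not called by this test either (adjusted p = 0.0541), while the core and the GATA motif were still called. Over GC quintiles, the Mantel-Haenszel test of the same peaks, which is not exact, called the SMAD box (odds ratio 2.92, adjusted p = 0.0379) and the FOX motif (adjusted p = 0.0151). It also called the TALE motif TGACAG (odds ratio 3.55, adjusted p = 0.0362), which Fisher's exact test did not (adjusted p = 0.0585). The median GC content was similar, 51.7% and 52.5%, and the median width was 1200 and 2058 bp, so that a centre window covers a smaller part of a typical E10.5 peak. The 40 better-scored E9.5 peaks with a usable flank held the box in 77.5% of centres and 35.0% of lower-coordinate flanks (exact McNemar test, p = 7.63e-05, adjusted p = 0.00198, 3.85% of the 26 tests called), and in 45.0% of higher-coordinate flanks (p = 0.00720, adjusted p = 0.0980), whereas the E10.5 peaks held it in 51.9% of centres and 53.1% of lower-coordinate flanks (adjusted p = 1).

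**Figure D5:**
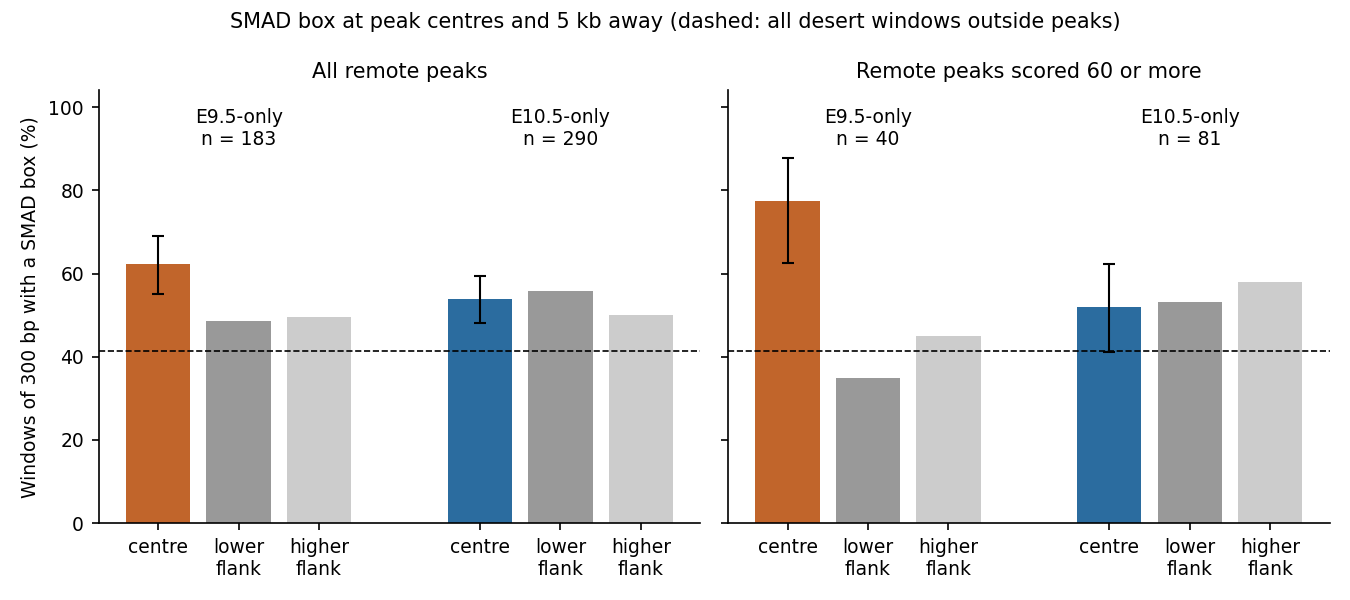
Bars give the percent of 300 bp windows with a SMAD box at the peak centre (coloured, with 95% Wilson intervals) and 5 kb away on the lower- and higher-coordinate sides (grey), for all remote peaks on the left and for those with a score of 60 or more on the right. The dashed line is the share over all desert windows outside peaks (41.4%), and the better-scored E9.5 centres stand at 77.5%.

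Against the other peaks of the same stage, the SMAD box was equally frequent within the error, with 62.4% of remote and 63.7% of other E9.5-only windows (difference -1.30 percentage points, 95% interval -8.84 to 5.79) and 54.1% and 53.7% at E10.5 (difference 0.39, -5.47 to 6.15). Fisher's exact test called 2 of 26 comparisons (7.69%), and both were the GC-rich SMAD form GGCGCC. By this exact test, it was present in 4 remote E9.5 windows (2.15%) against 9.13% of the other E9.5-only windows (odds ratio 0.22, adjusted p = 0.00483) and in 5 remote E10.5 windows (1.70%) against 12.5% (odds ratio 0.12, adjusted p = 9.45e-10). GC content moves with this motif, and over quintiles of GC content the Mantel-Haenszel odds ratios were 0.36 and 0.45 with adjusted p-values of 0.278 and 0.369, so that neither call was kept. With 500 bp windows, the GATA motif was more frequent in remote than in other E9.5-only peaks (Fisher's exact test, odds ratio 2.12, adjusted p = 0.000633) and this call was kept over GC quintiles (odds ratio 1.89, adjusted p = 0.00708). The same held for the homeodomain motif by Fisher's exact test, with an odds ratio of 2.29 (adjusted p = 0.00970) and of 2.09 over GC quintiles (adjusted p = 0.0381). The TEAD motif GGAATG was called at 500 bp as well (odds ratio 1.59, Fisher's exact test, adjusted p = 0.0313), and over GC quintiles its odds ratio was 1.53 with an adjusted p past the threshold (0.0811). For these 500 bp calls, the quintiles were of GC content in the central 300 bp, so the outer bases were not adjusted for. In the same 500 bp windows, the GATA motif was found in 29.0% of remote E9.5 centres and 26.2% of their lower-coordinate flanks (exact McNemar test, adjusted p = 0.859). For the homeodomain motif, these shares were 12.6% and 13.7% (exact McNemar test, adjusted p = 0.995). Among E9.5 peaks with a score of 60 or more, Fisher's exact test called the GATA motif (odds ratio 4.10, adjusted p = 0.01001) and the SMAD core (odds ratio 2.60, adjusted p = 0.0391), and over GC quintiles the odds ratios were 2.87 and 2.49 with an adjusted p of 0.0688 for each, past the threshold.

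The palindrome GTCTAGAC was rare in the central windows, with 0 of 186 at E9.5, a count which allows a share of up to 2.02% (upper Wilson bound), and 2 of 294 at E10.5. Over whole peaks, 5 remote E9.5-only peaks and 13 remote E10.5-only peaks held one. This corresponds to 23.6 and 19.7 palindromes per Mb of remote peak, compared with 6.97 per Mb of desert outside peaks and with 26.9 and 9.90 per Mb of the other stage-only peaks. SMAD boxes numbered 3.61 and 2.94 per kb of remote peak against 3.30 and 2.96 per kb of the other stage-only peaks and 1.958 per kb of desert outside peaks. These densities were not tested, and GC content moves with them. The 5 E9.5 palindrome peaks scored 415.21 (Myo16), 97.97 (En1), 77.66 (Wwox to Maf), 70.91 (Pcsk5 to Ostf1) and 63.43 (Galntl4), all above the upper quartile of remote E9.5 scores (59.4). The 13 E10.5 palindrome peaks scored between 38.32 (Nphp4 to Ajap1) and 111.08 (Fstl4) and were spread on both sides of the median of 54.3. The CTCF motif was found in 0 of 480 central windows, and as an exact word it was present in only 0.000107% of the desert windows, so its absence says only that these letters are not in these windows.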

How the data were processed

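SMAD4 ChIP-seq peaks of mouse limb buds were analysed from 2 deposited lists, 1 for each stage. The authors trimmed the reads, aligned them to mm9 with Bowtie 1.1.0, called peaks with MACS 1.4 in each replicate against its input, and combined the replicates of a stage with MSPC. The fifth column of each list is a score that the authors assigned to each peak. It has no header, and the methods state that a combined peak takes the best MACS p-value of its calls, so its unit is not named. It was used to rank peaks and, as an alternative, with the same limits in both lists, although the scores of the 2 lists may not be on one scale. Depth per sample is unknown.

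Lists were read as BED (positions printed from 1) and compared with the GENCODE vM1 annotation and the NCBIM37 genome, the same build, in Python 3.11.15 (pysam 0.24.0 for sequence, pandas 2.3.3 and NumPy 2.4.6 for tables, SciPy 1.17.1 for tests, Matplotlib 3.10.9 for plots). Flanking windows that overlapped a peak of either list were left out. Repeats were counted as 31-mers that occur more than once on chromosomes 1 to 19 and X. Shares are given with 95% Wilson intervals. Exact McNemar and Fisher tests were two-sided with Benjamini-Hochberg adjustment and a threshold of 0.05, and the scripts were tested on simulated data. The alternatives covered distance, overlap, score, window, flank, GC content and repeats.

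The members, gene lists, motifs and alternatives were chosen with earlier results of these data known, and those on repeats and the combined ones after the data were seen. Named were the 10 best-scored peaks of each stage, the 3 deserts with the most remote peaks of each stage (ties by the sum of scores) and the 5 with the most of both, peaks with the palindrome in the central window, all limb genes (1 is not reported here), and up to 12 genes of the other developmental lists with 2 or more peaks of a stage.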

Additional observations from a re-analysis of the deposited data

How the results depend on the processing

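Of 68 values recomputed under an alternative, 45 were classed as the same. Tested values in this class did not reverse and stayed on the same side of the threshold, but their size could change. With a score of 60 or more, the E9.5 excess of the SMAD box over the higher-coordinate flank was 32.5 points, against 13.7 in the main setting. At that score and without repeats, the stage odds ratio of the box was 2.89, against 1.41 in the main setting. The number of remote peaks depends on its limits. For a distance of 50 kb it was 412 (early) and 661 (late), 50 and 86 for 200 kb, 307 and 515 when only protein-coding starts counted, 41 and 84 for a score of 60 or more, and 4 and 6 for a score of 100 or more. A developmental gene flanked 19.4% of early and 11.9% of late peaks for the nearer gene alone (8.01% of desert bases), 16.3% of late peaks for starts within 500 kb (8.80% of desert bases) and 39.0% of early but 19.0% of late peaks for a score of 60 or more. The excess of the SMAD box over the flank rose to 42.5 percentage points at E9.5 for a score of 60 or more, where no E9.5 window was mostly repeated and removing repeats left out no peak, and was 4.196 points at E10.5 on the higher-coordinate side. The odds ratio of remote against other peaks, never called, crossed 1 at E9.5 with 200 bp windows (1.03), with a score of 60 or more (1.95) and with repeats also removed (1.962), and at E10.5 with 500 bp windows (0.991) and over GC quintiles (0.866). The stage odds ratio was 3.23 for a score of 60 or more. The cause of these shifts was not tested. Called motif tests numbered 0, 2 and 0 for centre against flank, remote against other, and stage. They numbered 2, 5 and 1 with 500 bp windows and 1, 4 and 4 for a score of 60 or more. No paired analysis was possible because each list combines the replicates of its stage, and for the same reason leaving out a replicate was not an option. Depth is unknown, so the lack of a peak at a stage is no measure of SMAD4 absence there.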
